A study of Mus musculus with 2 samples.

Results

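The genes described here are 35 components of the transforming growth factor beta (TGF-beta) and bone morphogenetic protein (BMP) pathways, measured in a control culture of mouse macrophages and in a culture labelled as deficient in beta-catenin, the carrier of the canonical Wnt signal. The members are a list of gene names, drawn up with earlier results of these data known, and were found as rows of the deposited expression table that carried a single annotated gene symbol. All 35 had such a row, among 19863 genes named in the same way. They comprised 5 ligands, 3 latent TGF-beta binding proteins, 10 receptors, 5 signalling Smads, 8 inhibitors and 4 target genes.

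Macrophages were grown from the bone marrow of mice aged 8 weeks in medium conditioned by L929 fibroblasts, an established line used as a source of the growth factor M-CSF. There were 2 groups with 1 array each, titled Control Macrophage and Beta-catenin deficient macrophage. The total RNA, biotin-labelled, was read on Affymetrix 1.0 ST arrays. The strain, the way beta-catenin was removed, any deleted exons, the genotype of the control and the number of mice per culture are not stated in the labels.

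Each deposited value was a log2 expression value from RMA, so a difference of 1 is 2-fold and a difference of 0.58 is 1.5-fold. Differences are given as the array labelled deficient minus control. With 1 array per group there was no spread between cultures to set a difference against, no test was made, and words such as higher or lower speak of these 2 arrays alone. A gene was counted as present when the higher of its values reached 7.28, called the floor here. This is the median over every value of both columns, and it is a rule of brightness and no detection call. The floor was reached by 10657 genes and by all 35 members. Bmp2 alone among the members reached it through 1 array, that labelled deficient, so it could pass only by being higher there. Levels of different genes come from different probes and are not compared with each other.

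Values in both arrays ran from 2.12 to 14.11, with a Pearson r of 0.98 between the arrays across rows, which are not replicates. Ctnnb1, the gene of beta-catenin, was 11.29 in control and 11.44 in the array labelled deficient. Probes outside any deleted exons would check nothing about a deletion, and the positions of the Ctnnb1 probes were not examined. Axin2, a feedback inhibitor that beta-catenin induces, was 7.61 in control and 5.97 in the array labelled deficient. Because Ctnnb1 was not lower, every direction below rests on the label of the array.

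TGF-beta is secreted in a latent complex, bound through its propeptide to latent TGF-beta binding proteins of the matrix, and has to be released before it can act. Free ligands join type II and type I receptor kinases, and the type I kinase phosphorylates Smad2 and Smad3 in the TGF-beta and activin branch or Smad1 and Smad5 in the BMP branch. These enter the nucleus with Smad4, and the genes they switch on include those of their own inhibitors, Smad6 and Smad7. In macrophages TGF-beta is known for restraining inflammatory activation and for the homeostatic gene programme of microglia.

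In the array labelled deficient 6 of the 35 members exceeded their control value by at least 1.5-fold, 4 were as far below it and 25 lay in between. Among all genes at or above the floor 7.54% were as far higher and 8.81% as far lower, against 17.1% and 11.4% of the members. The higher members were Bmp2, Ltbp2, Tgfbr3, Tgif1, Bmpr1a and Ltbp1, and the lower ones Bmpr2, Id1, Tgfbr1 and Smad6. At 2-fold, 3 members were higher and 0 lower, where 2.96% of all genes were higher and 1.59% lower. The median difference was -0.10 over the members and -0.08 over all genes at or above the floor, and 13 of the 35 members had a difference above 0, where 41.1% of all genes did and 58.9% were below 0. After a curve of the difference on mean level (loess) was subtracted, the same 6 and 4 members were past 1.5-fold, while the shares of all genes became 9.41% higher and 6.26% lower.

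**Figure D1:**
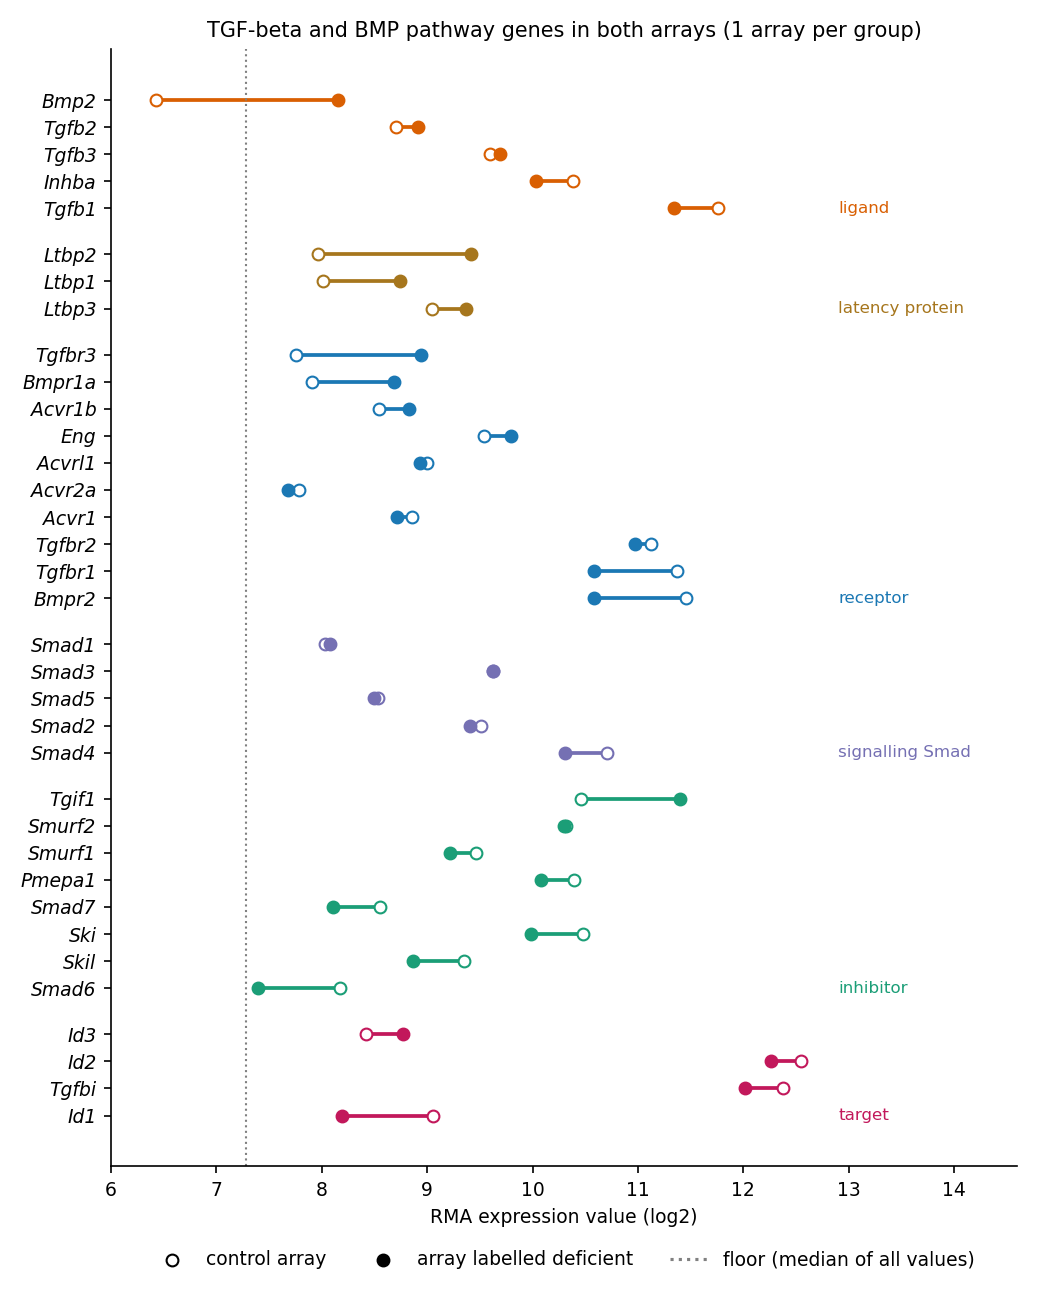
RMA expression value (log2, horizontal axis) of each of the 35 members in the control array (open points) and the array labelled deficient (filled points), joined by a line and ordered by role. The longest line is that of Bmp2, from 6.42 to 8.15 across the floor (dotted), while the signalling Smads other than Smad4 have points that lie close together or overlap.

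The ligands went both ways. Bmp2, a BMP ligand of bone formation, was 6.42 in control and 8.15 in the array labelled deficient, a 3.31-fold higher value. That difference was above those of 99.2% of genes at or above the floor, but its control value lay under the floor, in the dim range. Tgfb1, the TGF-beta isoform typical of immune cells, was 11.76 in control and 11.34 in the array labelled deficient, 1.34-fold lower. Inhba, whose product dimerises to activin A, was also lower there, at 10.03 against 10.39. The other TGF-beta isoforms lay nearer to level, with Tgfb2 at 8.71 in control and 8.92 in the array labelled deficient and Tgfb3 at 9.60 and 9.69. The median of the 5 ligands was 0.09.

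All 3 latent TGF-beta binding proteins were higher in the array labelled deficient, with a median difference of 0.73. Ltbp2, the member of this family that associates with elastic fibres and does not bind latent TGF-beta, was 7.96 in control and 9.42 in the array labelled deficient, 2.75-fold higher. Ltbp1, which anchors latent TGF-beta in the matrix, was 8.01 and 8.74, 1.66-fold higher. Ltbp3, which also binds latent TGF-beta, was 9.05 and 9.37, within 1.5-fold. Each of the other roles had members on both sides of 0.

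Fibroblast and stromal markers, like Bmp2 and the Ltbp genes, had higher values in the array labelled deficient. Of 14 listed markers 13 reached the floor, with 11 of these past 1.5-fold on the higher side and 0 on the lower. The shares of all genes at or above the floor were 7.54% and 8.81%. The median difference of the 13 markers was 1.04. The log2 of their summed linear values, in which the brightest probes weigh most, was 13.10 in control and 14.22 in the array labelled deficient. The highest were Cxcl12 (2.87) and Pdgfra (2.12), the lowest Thy1 (0.18) and Col5a1 (0.53), and Lum was under the floor in both arrays. Pdgfra and Thy1 reached the floor only in the array labelled deficient, so they could enter only by being higher there. In a culture RNA sample a different number of stromal cells and a different amount of RNA per cell cannot be told apart, and the part of stromal cells in the differences of the ligands, latency proteins and receptors was not tested.

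Receptors diverged among themselves, with 2 of 10 past 1.5-fold on the higher side and 2 on the lower side. Among all genes at or above the floor 7.54% were as far higher and 8.81% as far lower. The receptors' median of -0.09 turned to 0.00 after the loess subtraction. Bmpr2, the type II receptor of BMPs, was 11.46 in control and 10.58 in the array labelled deficient, 1.84-fold lower and the lowest of all 35 differences. Tgfbr1, the type I receptor of TGF-beta (also called ALK5), was 11.37 and 10.58, 1.73-fold lower. Of all genes, 2.50% of those at or above the floor had a lower difference than Bmpr2, and 3.69% a lower one than Tgfbr1. Both receptors were well above the floor in both arrays.

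Partners of these receptors were nearly level or higher. Tgfbr2, the type II receptor that binds TGF-beta and recruits Tgfbr1, was 11.12 in control and 10.97 in the array labelled deficient, 1.11-fold lower. Bmpr1a, a type I receptor of BMPs that works with Bmpr2, was 7.91 in control and 8.69 in the array labelled deficient, 1.72-fold higher. Tgfbr3 encodes betaglycan, a co-receptor that presents TGF-beta to Tgfbr2, and was 7.76 and 8.94, 2.27-fold higher. The TGF-beta branch and the BMP branch each held a lower kinase receptor (Tgfbr1, Bmpr2) beside a higher receptor (Tgfbr3, Bmpr1a).

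The remaining receptors stayed within 1.5-fold. Endoglin, Eng, the co-receptor related to betaglycan, was 9.54 in control and 9.80 in the array labelled deficient. Acvr1b, the type I receptor of activin, was 8.54 and 8.83. The type I receptors Acvr1 (a difference of -0.14) and Acvrl1 (-0.07) and the type II activin receptor Acvr2a (-0.10) were close to the median of all genes, and Acvrl1 changed sign under centring and loess.

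Of the signalling Smads 0 of 5 were past 1.5-fold in either direction, where 83.6% of all genes at or above the floor lay within it. Smad3 was 9.62 in both arrays, and Smad2, the other Smad of the TGF-beta branch, was 9.51 in control and 9.41 in the array labelled deficient. Of the BMP branch, Smad1 was 8.03 and 8.07, and Smad5 8.53 and 8.49. Smad4, the partner shared by both branches, differed most, at 10.71 in control and 10.31 in the array labelled deficient, 1.32-fold lower. The differences of Smad3 and Smad5 were so small that centring, quantile normalization and loess each turned their sign, as the role's median of -0.04 did under quantile normalization (0.03) and loess (0.05).

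Inhibitors were lower in 7 of 8 cases, beside 58.9% of all genes, and 1 of the 8 was past 1.5-fold on the lower side, beside 8.81%. Smad6, which blocks BMP receptors and Smad1, was 8.18 in control and 7.40 in the array labelled deficient, 1.71-fold lower and close to the floor. Smad7, which blocks TGF-beta receptors, was 8.55 and 8.11, 1.36-fold lower. The nuclear co-repressors Ski (10.48 and 9.99) and Skil (9.35 and 8.86) were each 1.40-fold lower. Pmepa1, a membrane protein that keeps Smad2 and Smad3 from the receptor, was 10.39 and 10.08.

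The ubiquitin ligases that remove receptors and Smads were nearer to level. Smurf1 was 9.46 in control and 9.21 in the array labelled deficient. Smurf2 was 10.32 and 10.30, a difference of -0.02 whose sign turned with centring, quantile normalization or loess, so 6 inhibitors were lower under all 3 of these settings. Smurf2 was also the 1 member read by a further transcript cluster, and that dimmer cluster was 7.72 in control and 6.60 in the array labelled deficient, a difference of -1.12. The clusters of Smurf2 therefore disagree.

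Tgif1 stood opposite to the other inhibitors except Smurf2, which was nearly level. Tgif1 encodes a homeobox co-repressor of Smad2 and Smad3 and was 10.46 in control and 11.40 in the array labelled deficient, 1.92-fold higher. That difference was above those of 96.8% of genes at or above the floor. Over all 8 inhibitors the median was -0.38, and it was -0.30 after loess.

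**Figure D2:**
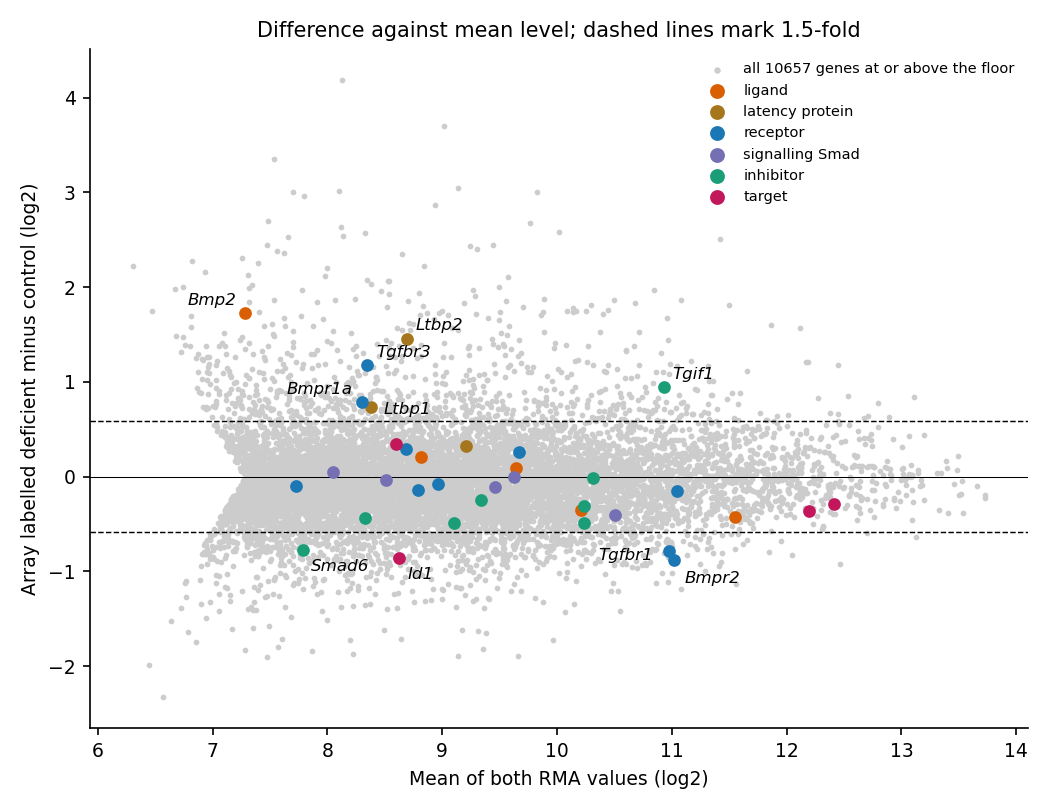
Difference of the array labelled deficient minus control (log2, vertical axis) against the mean of both RMA values (log2, horizontal axis) for 10657 genes at or above the floor (grey) and the 35 members (coloured by role). The 10 named members lie outside the dashed lines at 1.5-fold, 6 above and 4 below, and the largest of them, Bmp2 at 1.73, lies well within the range of all genes, which reaches 4.18.

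Target genes were lower in 3 of 4 cases, which is near the 58.9% of all genes that were lower. Id1, an inhibitor of basic helix-loop-helix factors that BMP-activated Smads induce directly, was 9.06 in control and 8.19 in the array labelled deficient, 1.82-fold lower. Id2, its relative, was 12.55 and 12.27, while Id3 was higher in the array labelled deficient, at 8.77 against 8.42. The 3 Id genes therefore did not share a direction. Tgfbi, a secreted matrix protein named for its induction by TGF-beta, was 12.38 in control and 12.02 in the array labelled deficient, 1.28-fold lower.

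Genes known as targets of the BMP branch went both ways. Id1 (-0.86), Smad6 (-0.78) and Id2 (-0.29) were lower in the array labelled deficient. Id3 (0.35), Atoh8 (0.44), Id4 (0.24) and Hey1 (0.11) were higher there. Atoh8, Id4 and Hey1 come from a further list and are not among its highest or lowest genes. Id4 and Hey1 were under the floor in control, so they could enter only by being higher. The 1 TGF-beta-named target, Tgfbi, and the TGF-beta-induced inhibitors Smad7, Skil and Pmepa1 were lower by 1.24-fold to 1.40-fold. None of these 4 was past 1.5-fold, and 58.9% of all genes at or above the floor were lower. Of 15 further target genes at the floor 12 were higher and 3 lower, including Ccn2 (1.21) and Klf10 (-0.52).

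Promoter windows were available for 25 of the 35 members, from RefSeq with the build GRCm38.p6, as 250 bases before and 20 bases after a transcription start. Shown are those of 5 members past 1.5-fold, the higher Ltbp2 and Bmpr1a and the lower Tgfbr1, Bmpr2 and Smad6. Id1, Bmp2 and Tgfbr3 had no window. Windows are printed 5′ to 3′ on the strand of the gene, with capitals for GGCGCC, a GC-rich site of BMP-activated Smads, and for GTCTAGAC, the palindrome bound by Smad3 and Smad4. They lie at chr12:84876472-84876741 (minus strand, Ltbp2), chr14:34502527-34502796 (minus strand, Bmpr1a), chr4:47352972-47353241 (plus strand, the upstream of 2 listed starts of Tgfbr1), chr1:59764029-59764298 (plus strand, Bmpr2) and chr9:64022040-64022309 (minus strand, Smad6).
Ltbp2: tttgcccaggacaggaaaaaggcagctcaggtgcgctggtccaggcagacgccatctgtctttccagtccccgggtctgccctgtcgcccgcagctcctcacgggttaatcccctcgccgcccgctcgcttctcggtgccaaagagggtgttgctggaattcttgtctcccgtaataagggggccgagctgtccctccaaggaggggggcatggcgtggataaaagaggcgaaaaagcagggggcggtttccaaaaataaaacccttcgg
Bmpr1a: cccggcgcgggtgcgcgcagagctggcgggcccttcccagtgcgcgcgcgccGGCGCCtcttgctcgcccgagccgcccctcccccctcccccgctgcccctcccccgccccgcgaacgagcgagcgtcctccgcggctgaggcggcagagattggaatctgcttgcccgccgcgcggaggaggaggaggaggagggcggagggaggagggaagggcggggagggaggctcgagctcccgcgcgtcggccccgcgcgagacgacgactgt
Tgfbr1: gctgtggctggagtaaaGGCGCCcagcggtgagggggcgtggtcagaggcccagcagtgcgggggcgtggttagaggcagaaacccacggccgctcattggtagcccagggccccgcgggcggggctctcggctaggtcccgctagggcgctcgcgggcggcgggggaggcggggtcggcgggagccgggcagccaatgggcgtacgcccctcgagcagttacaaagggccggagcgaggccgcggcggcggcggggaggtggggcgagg
Bmpr2: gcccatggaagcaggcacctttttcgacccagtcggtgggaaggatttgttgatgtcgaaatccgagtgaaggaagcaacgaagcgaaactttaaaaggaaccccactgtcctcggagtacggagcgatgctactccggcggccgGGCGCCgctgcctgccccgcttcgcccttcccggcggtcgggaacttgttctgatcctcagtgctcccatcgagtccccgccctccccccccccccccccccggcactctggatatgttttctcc
Smad6: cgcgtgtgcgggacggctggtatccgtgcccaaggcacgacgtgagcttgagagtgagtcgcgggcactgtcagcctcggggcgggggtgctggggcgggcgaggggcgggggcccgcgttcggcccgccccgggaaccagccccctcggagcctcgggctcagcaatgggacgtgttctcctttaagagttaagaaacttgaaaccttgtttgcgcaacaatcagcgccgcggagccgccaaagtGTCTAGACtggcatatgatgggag

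The palindrome GTCTAGAC was found in Smad6 alone among the 25 members, starting at position -4 and so lying across the start itself, and in 0.218% of all 27025 genes with a window. GGCGCC, which reads the same on both strands, occurred in 8 of the 25 members and in 11.8% of all genes with a window. It was in the lower receptors Tgfbr1 (position -233) and Bmpr2 (-105) and also in the higher receptor Bmpr1a (-198), so it did not separate the directions. The other members with it, Id2, Ski, Smad5, Smurf2 and Tgfbi, were within 1.5-fold. The members' windows were also richer in G and C, with a median of 65.6% against 53.0% over all genes (the richest window of each). CTTTGAT, a site of the TCF/LEF partners of beta-catenin, was searched on both strands and found in 1 of the 25, Tgif1, in 1 of its 5 windows, and in 4.03% of all genes with a window. None of these motifs overlaps another in the windows shown. Each match is a run of letters and not a measured binding site.

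Several members are neighbours in the genome. Smad7 and Smad2 were both lower, by unequal amounts. Smad6 and Tgfbi were lower beside a nearly level neighbour, Smad3 and Smad5 respectively, whose sign was not stable between settings. Acvrl1 and Acvr1b differed in opposite directions, and the sign of Acvrl1 was not stable either. No share over neighbouring genes at large was computed, so no result about neighbours is drawn. Smad3 and Smad6 are adjacent protein-coding genes, with differences of -0.00 and -0.78. Tgfbi and Smad5 are adjacent too (-0.36 and -0.04), as are Acvrl1 and Acvr1b (-0.07 and 0.29). Between Smad7 (-0.44) and Smad2 (-0.11) lie 2 other protein-coding genes.

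The rest of the pathway was read from lists of 104 further genes, of which 97 had a row and 57 reached the floor. Of these 57, 12 were past 1.5-fold on the higher side and 3 on the lower, and the median was 0.11 against -0.08 for all genes. The 12 higher ones are 21.1% of the 57, where 7.54% of all genes were as far higher, but 6 of the 57 were under the floor in control and could enter only by being higher. Secreted antagonists, which bind ligands and keep them from receptors, had 5 of 8 genes past 1.5-fold on the higher side and 0 on the lower, and a median of 1.00. They were led by Dcn (7.57 in control and 9.50 in the array labelled deficient), the proteoglycan decorin, which binds TGF-beta, and by Fstl1 (9.56 and 11.33), a follistatin-like glycoprotein. The lowest antagonists were Nbl1 (-0.55) and Twsg1 (-0.08). Nbl1 was under the floor in the array labelled deficient (7.05), so it could enter only by being lower there. Chordin-like Chrdl1 (1.38, from 6.41 in control, so that it reached the floor only in the array labelled deficient), the activin trap Fst (1.12) and the BMP antagonist Grem1 (0.89), chosen after their values were seen, were the other 3 that were higher. Dcn is also a stromal marker, and the medians of stromal (1.04), neutrophil (1.33) and platelet markers (1.06) in the same array stand beside this list.

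Among further ligands 4 of 23 with a row reached the floor, and Bmp4, Gdf7 and Gdf11 reached it only in the array labelled deficient, so they could pass only by being higher there and the list supports no direction. Bmp4, the closest relative of Bmp2, was 6.99 in control and 8.84 in the array labelled deficient, a difference of 1.85. Gdf3 differed by 0.54, Gdf11 by 0.37 and Gdf7 by 0.17. Of 7 genes of latency and activation, 2 were past 1.5-fold on the higher side and 1 on the lower, and 5 in all had a difference above 0. Among all genes at or above the floor 7.54% were as far higher, 8.81% as far lower and 41.1% above 0. Lrrc32, which encodes GARP, the protein that displays latent TGF-beta on the cell surface, was 8.28 in control and 10.25 in the array labelled deficient, a difference of 1.96. The procollagen protease Bmp1, which is no BMP ligand, followed with 1.05. Furin, the protease that cuts the TGF-beta propeptide, was lowest at -0.71, and the integrin subunit Itgav was -0.32.

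Of 20 intracellular modulators 1 was past 1.5-fold, on the lower side, where 83.6% of all genes lay within it, and the median was -0.07. The ubiquitin ligase Rnf111, known as Arkadia, which degrades Ski, Skil and Smad7, was lowest at -0.63, followed by the acetyltransferase Ep300 at -0.53, and Rnf111 was within 1.5-fold after loess (-0.55). The highest were the chaperone-linked ligase Stub1 (0.37) and the co-repressor Tgif2 (0.21), a relative of Tgif1. The 3 further receptor genes at or above the floor, all within 1.5-fold, were Rgmb (-0.53), Rgma (-0.28) and the decoy receptor Bambi (-0.09).

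Further target genes had a difference above 0 in 12 of 15 cases, where 41.1% of all genes did, and 2 of the 15, Id4 and Hey1, reached the floor only in the array labelled deficient. Past 1.5-fold were 4 on the higher side (7.54% of all genes) and 1 on the lower (8.81%), and the median was 0.22. The matricellular genes Ccn1 (9.76 in control and 11.59 in the array labelled deficient) and Ccn2 (11.57 and 12.77) were highest, at 1.83 and 1.21. Both are also targets of other pathways, and the collagens Col1a1 and Col3a1, which completed the 4, are stromal markers too. Runx3 (-0.66), a transcription factor of leukocytes, and Klf10 (-0.52), a TGF-beta early response gene, were lowest, and Runx3 was within 1.5-fold after loess (-0.57).

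**Figure D3:**
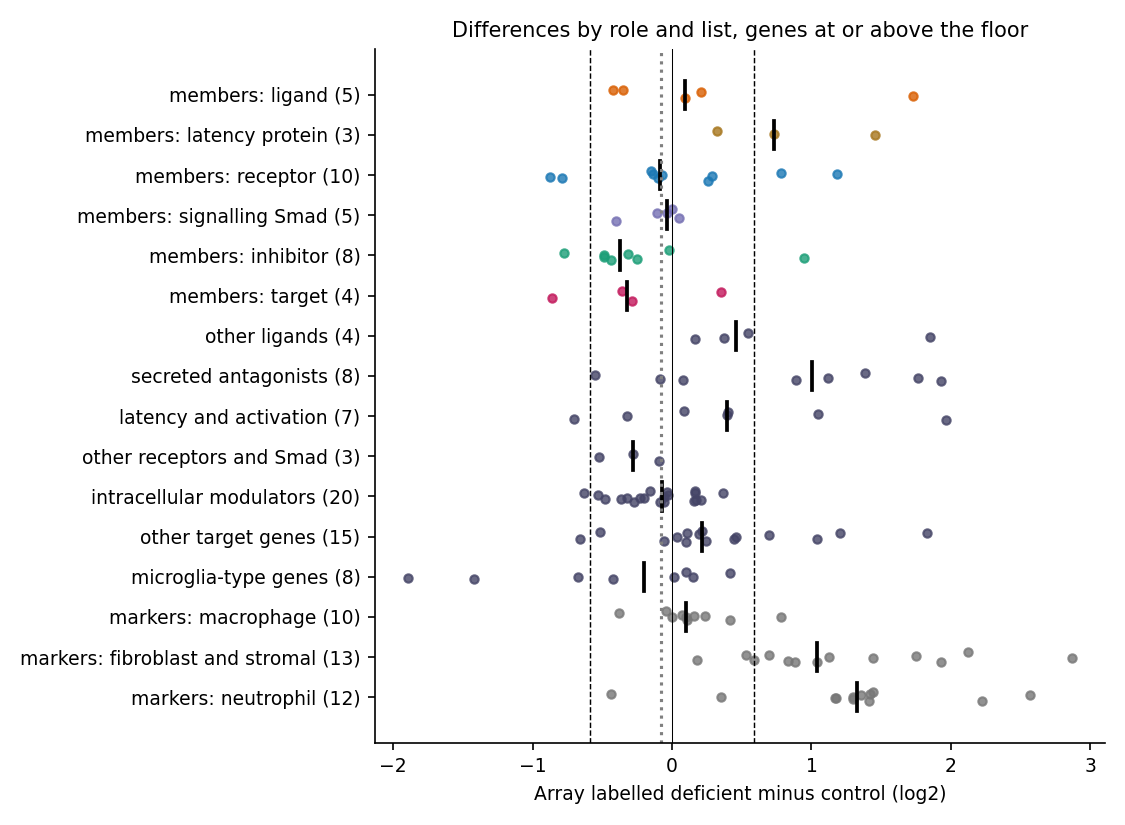
Difference of the array labelled deficient minus control (log2, horizontal axis) for each gene at or above the floor, by member role, further pathway list and marker list, with the number of genes in brackets. Black bars are medians, dashed lines mark 1.5-fold and the dotted line is the median of all genes, -0.08; the medians of secreted antagonists (1.00), stromal (1.04) and neutrophil markers (1.33) lie right of the upper 1.5-fold line, and those of the inhibitors (-0.38) and member targets (-0.32) lie left of 0.

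Genes of the microglia-type programme, which is linked to TGF-beta in the brain, split. Of 12 listed 8 reached the floor, with 3 of these past 1.5-fold on the lower side, 0 on the higher and a median of -0.20. All genes at or above the floor had a median of -0.08, with 8.81% as far lower and 7.54% as far higher. Tmem119 was 10.61 in control and 8.72 in the array labelled deficient, the purine receptor P2ry12 8.66 and 7.24, and the fractalkine receptor Cx3cr1 10.83 and 10.15. P2ry13 differed by -0.42, while Fcrls (0.01), Csf1r (0.10), Olfml3 (0.15) and Mertk (0.42) were level or higher. Gpr34 (7.09 and 5.04), Sall1 and Siglech were under the floor in both arrays, and P2ry12 was under it in the array labelled deficient.

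Of the markers of macrophages themselves 1 of 10 was past 1.5-fold, on the higher side, near the share of all genes (7.54%), and the median was 0.10. They ran from Lyz2 (-0.38) and Itgam (-0.04) to Mertk (0.42) and the Fc receptor Fcgr1 (0.78), and Cd163 was under the floor in both arrays. Neutrophil granule markers were past 1.5-fold on the higher side in 10 of 12 cases (median 1.33), from Camp (-0.43) and Ly6g (0.35) to Mpo (2.22) and Retnlg (2.57). Of the 12, 4 (Retnlg, Ctsg, Prtn3 and Ly6g) were under the floor in control and so could enter the count only by being higher. The log2 of their summed linear values, in which the brightest probes weigh most, was 12.48 in control and 13.80 in the array labelled deficient. Of 6 endothelial markers at the floor 1 was past 1.5-fold on the higher side and 5 were above 0 (median 0.41, from Ecscr at -0.14 and Egfl7 at 0.27 to Vwf at 0.51 and Emcn at 2.00), and of 4 megakaryocyte and platelet markers all were above 0 and 3 past 1.5-fold (median 1.06, Pf4 0.46, Itga2b 0.83, Gp9 1.29 and Ppbp 2.51). Of 8 dendritic cell markers 3 reached the floor, Itgax (1.53) and Kmo (1.30) higher and Ccr7 (-0.63) lower. Pecam1, Emcn, Gp9 and Kmo too were under the floor in control. Ccr7 was under it in the array labelled deficient (7.23), so it could enter only by being lower there. None of the 35 members is in a marker list, and the part of these cells in the members' differences was not tested.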

How the data were processed

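Total RNA of 2 cultures, 1 control and 1 labelled beta-catenin deficient, was read on 1 array each. The deposited table holds log2 values per transcript cluster made with RMA, per the submitters' processing notes; that the scale is log2 was inferred from the range of the values, and the RMA version, its settings, the genome build and any filter were not given in the sources used here. No label says whether a column is 1 hybridisation or a mean of several.

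Of 25917 rows, 21624 had a single symbol in GEO's platform annotation, 1568 several and 2725 none, and an update through the RefSeq table of GRCm38.p6 altered 0 symbols. The cluster with the highest mean stood for its gene. Differences, folds and medians were computed with Python 3.11.15, pandas 2.3.3 and statsmodels 0.14.6 (loess span 0.3). Arrays carry no read depth, and their number limits the precision. The procedure was run on simulated data, which were the control values with little noise and known shifts well past the fold limit. Such a run checks the computation and does not measure the error of a difference between cultures. No p-value was computed.

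The members and lists were chosen with earlier results of these data known. Named by rule were all members, the 2 highest and 2 lowest genes of each list at the floor, all microglia-type genes, Ctnnb1 and Axin2. Other list genes, such as Chrdl1, Fst, Grem1, Atoh8, Id4, Hey1, Col1a1, Col3a1, Lum and Cd163, were named outside this rule. The named-gene rule passed over listed genes without a single-symbol row, which are not analysed here. Alternatives were other floors, centring, quantile normalization, loess, cluster means and a 2-fold limit.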

Additional observations from a re-analysis of the deposited data

How the results depend on the processing

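The counts of 6 higher and 4 lower members were the same with no floor, with the floor set on the mean, and under loess, centring, quantile normalization and cluster means. A floor at the 75th percentile (9.07) left 20 members, of which 2 were at least 1.5-fold higher and 2 lower. Among all genes at or above that floor 8.1% were as far higher and 8.83% as far lower. Bmp2, Ltbp1, Tgfbr3 and Bmpr1a of the higher members, and Id1 and Smad6 of the lower ones, did not reach it in either array. At 2-fold the counts were 3 higher and 0 lower; no test was made, so there is no count at an unadjusted p. The members' median ran from -0.27 with the 75th percentile floor to -0.00 after loess, and for all genes from -0.15 with no floor to 0.00 after loess. Without a floor, 990 of 19863 genes were past 1.5-fold on the higher side (4.98%) and 2590 on the lower, the latter a larger share than the members' 11.4%.

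Over 140 values of single members under centring, quantile normalization, loess and cluster means, 0 crossed the 1.5-fold limit. Signs changed in 11 of the 140, all of them in Acvrl1, Smad3, Smad5 and Smurf2. The mean of both clusters put Smurf2 at -0.57. No paired analysis was possible because each group has 1 array, and for the same reason no replicate could be left out. With a single array per group no difference could be set against a replicate error. Signal over background was not analysed here, and Bmp2 was the 1 member with a value under the floor.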
